A study of Mus musculus with 2 samples.

Results

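Immunity-related GTPases, or IRG proteins, were followed in RAW246.1 mouse macrophage cells given miR-122 or PBS. The members were 7 genes, Irgm1, Irgm2, Igtp, Iigp1, Tgtp1, Tgtp2 and Ifi47, out of 20659 gene symbols matched to the arrays. They were taken as every non-control probe whose accession resolved to 1 of these symbols, which gave 10 probes and 19 spots. Measured values played no part in that rule, although the family was picked with earlier results of these arrays known. Cells grew in DMEM, and their total RNA, carrying the Cy3 dye, was read on Agilent one-colour mouse arrays. The first group was 1 culture given synthetic miR-122, the abundant liver microRNA, for which the labels state 5 μg/mL. The second was 1 mock culture that received PBS. The study asked how miR-122 from the liver acts on inflammatory activation of alveolar macrophages, whereas the cells here were a cultured line given a synthetic RNA. Groups follow the source names and descriptions, while the title of the miR-122 sample reads as a culture without it and the dose text is identical for both cultures.

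IRG proteins are large GTPases whose genes are switched on by interferons in mouse cells. There they settle on the vacuoles in which intracellular parasites and bacteria such as Toxoplasma gondii and Chlamydia live, and help to break those vacuoles open. The GMS class, Irgm1, Irgm2 and Igtp (also called Irgm3), carries a methionine in place of a conserved lysine of the nucleotide-binding loop, sits on the cell's own membranes and restrains the other class. The GKS class, Iigp1 (Irga6), Tgtp1 and Tgtp2 (both Irgb6) and Ifi47 (Irgd), keeps the lysine and holds the effectors that gather on the vacuole.

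With 1 array per group, no test, p-value or SD between cultures exists for any comparison, and differences were described by size. Signals are the processed intensities of the scanner software, and the error beside each is that software's own estimate for the spot, a technical error within an array. Log2 differences and folds were taken after dividing each array by its 75th percentile, which lay 0.28 lower on the log2 scale on the miR-122 array than on the PBS array. The scanner software called 27573 of 39429 probes well above background with miR-122 and 28306 with PBS, and 0 spots were saturated. Macrophage markers were present, with 8 of 10 well above background on both arrays and a summed signal of 59468 with miR-122 and 88454 with PBS. Of these 8 markers, 3 had positive and 5 negative differences, and 0 passed 2-fold after this scaling. Without scaling Itgam, at -1.13, and Csf1r, at -1.05, were past 2-fold lower, and Itgam also with median scaling. Their part in the results below was not tested. Markers of lymphoid cells, the main source of interferon gamma in animals, were measured for 5 of 9 genes, with a summed signal of 899 with miR-122 and 1085 with PBS. Ifng itself was not well above background on either array.

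The family as a whole stood higher in the miR-122 culture, while the probes of the GKS class were split. The low values there came from the brighter Iigp1 probe and the dim Tgtp1 probe. Whether they describe the genes or the probes was not tested. Of the 10 member probes, 9 were well above background on both arrays. Of these, 7 were at least 2-fold higher with miR-122, set against 4.09% of all 26625 probes measured on both arrays, and 5 were at least 4-fold higher, set against 0.747%. No member probe was 2-fold lower, as 1.33% of all probes were. Counted by gene, with each gene taking its brightest probe, 5 of 7 members were at least 2-fold higher, set against 4.57% of 15022 genes, and 0 were 2-fold lower, set against 1.78%. The median difference was 2.35 over the 7 genes and 0.09 over all genes. In bulk RNA, more cells with a transcript and more transcript per cell cannot be told apart.

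**Figure D1:**
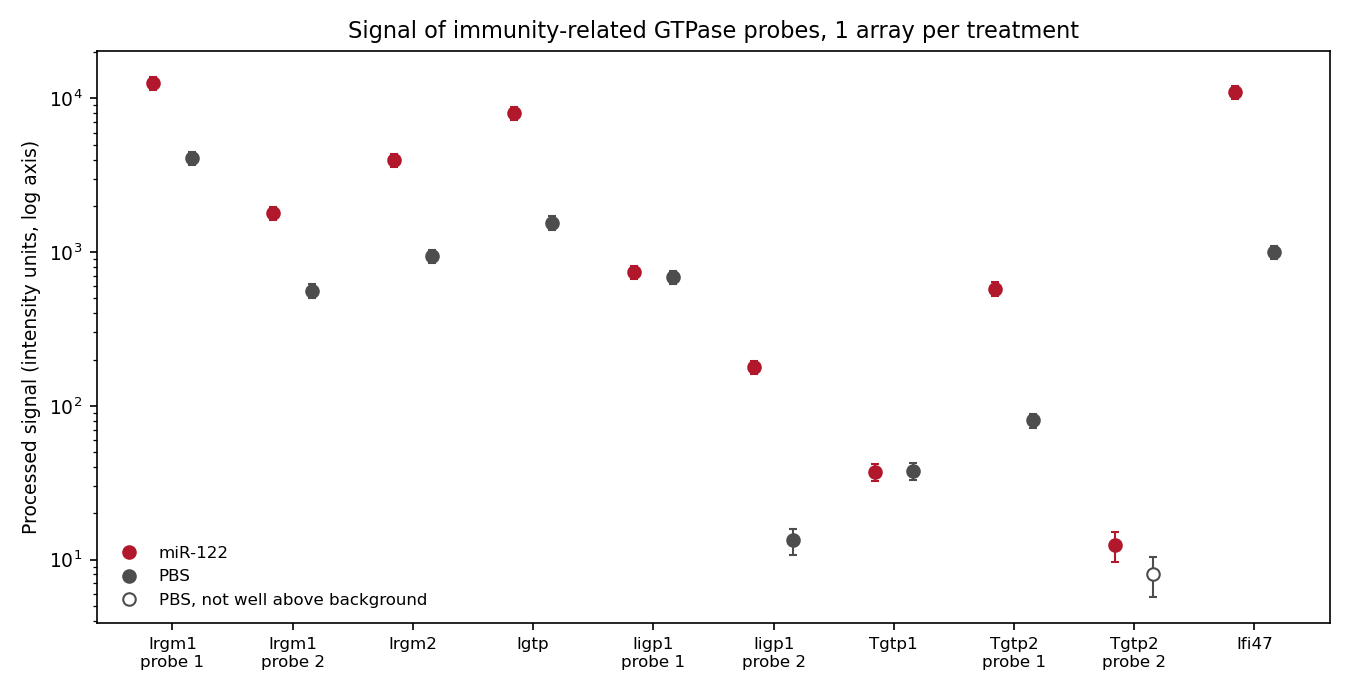
Processed signal (intensity units, log axis) of each member probe on the miR-122 array and on the PBS array, with the scanner software's error as bars and an open circle for a probe not well above background. The pairs of Irgm1, Irgm2, Igtp, Ifi47, the second Iigp1 probe and the first Tgtp2 probe lie far apart. The error bars of the first Iigp1 probe, of Tgtp1 and of the second Tgtp2 probe overlap. Heights of different probes are not comparable.

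The GMS members were all higher, least for Irgm1 and most for Igtp. Irgm1, known in mice for resistance to mycobacteria and other intracellular bacteria, was read by 2 probes. The brighter gave a signal of 12574 ± 1257 with miR-122 and 4093 ± 409 with PBS, 3.72-fold higher after scaling. The dimmer gave 1791 ± 179 with miR-122 and 560 ± 56 with PBS, 3.88-fold higher, so that the 2 Irgm1 probes differed by less than their error of 0.20 on the log2 scale. Irgm2, a Golgi-associated regulator in mouse cells, had 3953 ± 395 with miR-122 and 937 ± 94 with PBS, a log2 difference of 2.35, or 5.11-fold.

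Igtp, which encodes the regulator found on the endoplasmic reticulum and lipid droplets of mouse cells, was the best measured member because its probe is printed 10 times. Its signals were 7569 at the lowest, 7935 at the median and 8509 at the highest over the 10 spots of the miR-122 array. On the PBS array they were 1500 at the lowest, 1576 at the median and 1598 at the highest. Every spot of the miR-122 array was thus far above every spot of the PBS array, and Igtp was 6.26-fold higher. The spots scattered with an SD of 0.05 with miR-122 and 0.03 with PBS on the log2 scale, which is spread within an array and not between cultures.

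In the GKS class, Ifi47 had the largest difference of any member by its gene value. Its signal was 10978 ± 1098 with miR-122 and 1000 ± 100 with PBS, a log2 difference of 3.73 ± 0.20 by the scanner error, or 13.3-fold. Ordered from the largest positive difference down, Ifi47 stood at rank 25 of 15022 genes. Tgtp2 stood at rank 35 and Igtp at rank 56, while Irgm2 was at rank 79 and Irgm1 at rank 135.

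Tgtp1 and Tgtp2 are nearly identical genes that lie close together on chromosome 11, with 9930111J21Rik2 between them. Their probes did not give the same value. The brighter Tgtp2 probe read 578 ± 58 with miR-122 and 80.4 ± 8.4 with PBS, 8.70-fold higher, or 5.03-fold with normexp background correction, which lifts dim signals. The other Tgtp2 probe was well above background on the miR-122 array only, at 12.4 ± 2.8 there against 8.0 ± 2.3 with PBS. It was at least 1.39-fold higher by a bound that leaves out these overlapping errors. The Tgtp1 probe was dim and alike on both arrays, at 37.0 ± 4.6 with miR-122 and 37.7 ± 4.5 with PBS. Its difference was 0.25 after scaling and -0.03 without it, so its direction flipped with the scaling. Which of the 2 genes each probe detects was not tested, since probe sequences were not used here, so Tgtp1 and Tgtp2 are uncertain as separate genes.

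The value for Iigp1, whose product Irga6 is among the GTPases that gather on the Toxoplasma vacuole in mouse cells, rested on the choice of probe. The brighter of its 2 probes gave 739 ± 74 with miR-122 and 690 ± 69 with PBS, a log2 difference of 0.38, well short of 2-fold. The other gave 178 ± 18 with miR-122 and 13.3 ± 2.55 with PBS, a log2 difference of 4.02, or 16.2-fold. Both are annotated to the same transcript accession. With normexp the second probe was 3.65-fold higher, its signal with PBS being close to 10.8, the lowest signal well above background on that array. The mean of the 2 probes gave a log2 difference of 2.20 for Iigp1 and raised the count of members past 2-fold to 6. The differences of the 2 probes lay 3.64 apart, against a median range of 0.20 among 3575 genes with several probes on both arrays, and 2 of those genes, Iigp1 included, had a range that large.

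**Figure D2:**
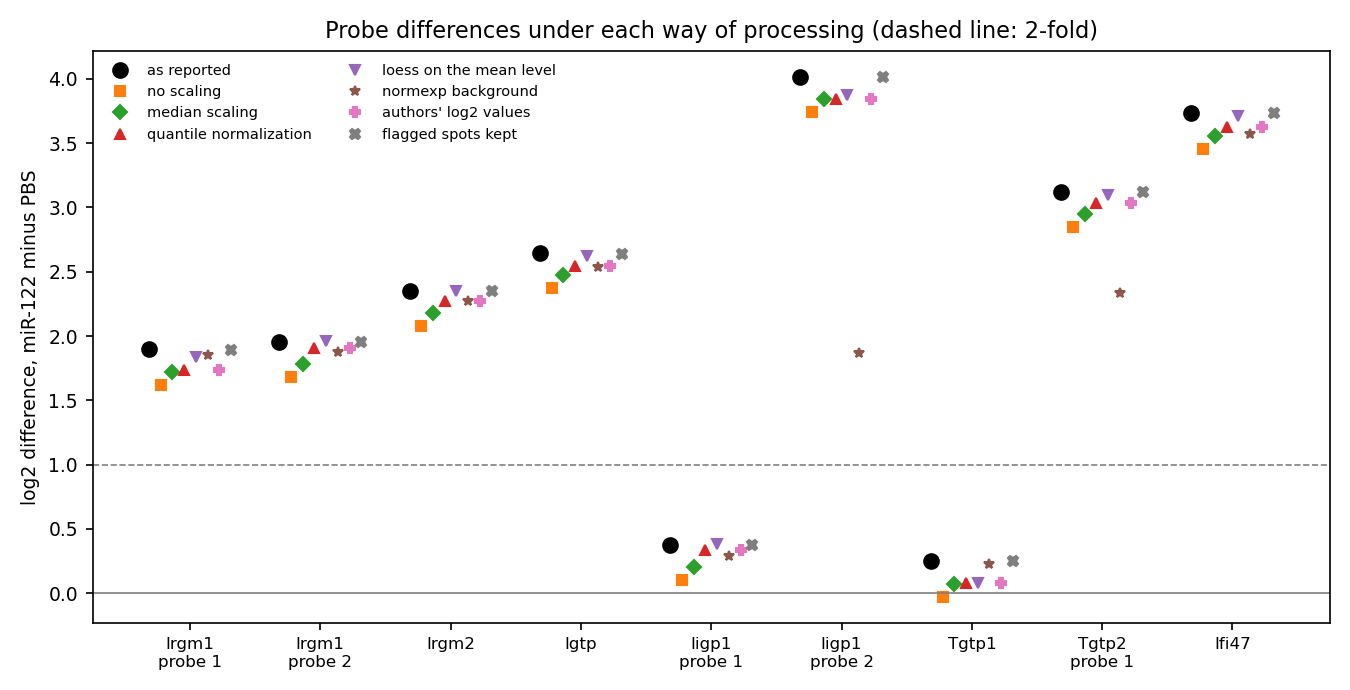
Log2 difference, miR-122 minus PBS, of the 9 member probes well above background on both arrays, under the main processing and 7 other ways of processing the same arrays; the dashed line marks 2-fold. The same 7 probes stay above the line under each of the 8, and the first Iigp1 probe and Tgtp1 stay below it.

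Under the 7 other ways of scaling or correcting the arrays, the 7 probes above 2-fold stayed above it and the first Iigp1 probe and Tgtp1 stayed below it. These ways are not all separate checks. The authors' log2 values nearly repeated quantile normalization, and keeping outlier spots nearly repeated the main processing. The log2 difference of Ifi47 ranged from 3.46 to 3.73. In folds, Igtp ranged from 5.17-fold to 6.26-fold, Irgm2 from 4.22-fold to 5.11-fold and the brighter Irgm1 probe from 3.07-fold to 3.72-fold. Without scaling the median of all genes moved by -0.28, with median scaling by -0.18 and with quantile normalization by -0.12. Relative to the median of all genes, the member median was 2.26 in the main processing and lay between 2.16 and 2.34 under the others. On the same footing Tgtp1 lay between 0.07 and 0.16 and Iigp1 between 0.18 and 0.38. Without scaling and with median scaling these relative values could not move, since both settings shift every gene alike. Over all genes the scaling did move the balance of direction: 71.9% of the genes past 2-fold were higher in the main processing, 50.8% with median scaling, 59.9% with quantile normalization and 40.5% without scaling.

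Promoter sequence is shown because 4 of the 7 members, Irgm2, Igtp, Tgtp1 and Tgtp2, share a short block of it that the choice of genes did not use. RefSeq promoter windows of GRCm38.p6, from 250 bases before the annotated start to 50 after it, were found for 6 of the 7 members, all but Iigp1. They were searched on both strands for the core of the interferon-stimulated response element, found before many interferon-induced genes and written as GAAANNGAAA. The other motif searched was the gamma-activated site, written as TTCNNNGAA. The last 90 bases before the start are printed 5′ to 3′ on the gene's strand, with the bases of either motif in capitals.
Irgm1: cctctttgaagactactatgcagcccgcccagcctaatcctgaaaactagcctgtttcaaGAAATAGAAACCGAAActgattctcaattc
Irgm2: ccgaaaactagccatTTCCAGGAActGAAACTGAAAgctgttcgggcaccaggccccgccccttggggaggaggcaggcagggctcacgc
Igtp: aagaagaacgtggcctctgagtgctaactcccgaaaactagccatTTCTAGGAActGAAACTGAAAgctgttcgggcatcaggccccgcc
Tgtp1: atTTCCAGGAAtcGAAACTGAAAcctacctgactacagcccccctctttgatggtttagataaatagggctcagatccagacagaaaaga
Tgtp2: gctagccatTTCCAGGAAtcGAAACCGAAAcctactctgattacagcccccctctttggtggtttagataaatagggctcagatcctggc
Ifi47: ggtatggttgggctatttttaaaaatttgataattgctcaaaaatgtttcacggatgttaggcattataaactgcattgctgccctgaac
These stretches lie at chr11:48871421-48871510 on the minus strand for Irgm1, chr11:58214887-58214976 on the plus strand for Irgm2 and chr11:58199466-58199555 on the plus strand for Igtp. Those of the GKS genes lie at chr11:48992247-48992336 on the minus strand for Tgtp1, chr11:49064213-49064302 on the minus strand for Tgtp2 and chr11:49076497-49076586 on the plus strand for Ifi47.

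The response element core was in the windows of 5 of the 6 members and the gamma-activated site in those of 4. Over all 32851 windows of the same length, 3.44% held the first and 8.30% the second. The core was not particular to the members. Of 5 other interferon-inducible GTPase genes with a window, 5 had the core and 2 the gamma-activated site. Of 6 further IRG genes with a window, 3 had the core and 2 the gamma-activated site. In Irgm2, Igtp, Tgtp1 and Tgtp2 the gamma-activated site began exactly 11 bases before the response element core. That spacing, counted after it was noticed in the members, was found in 5 of the 32851 windows, these 4 and that of Gm12185, a further IRG gene. The cores began 64 bases before the start in Irgm2, 34 in Igtp, 77 in Tgtp1 and 70 in Tgtp2. Irgm1 had 2 overlapping cores, beginning 30 and 24 bases before its start, and no gamma-activated site. Over the 40 bases that end with the core, Irgm2 and Igtp shared 39 and Tgtp1 and Tgtp2 shared 36, while Irgm1 shared 23 to 26 with the others. The windows are those of related genes and are not independent. Neither motif was in the window of Ifi47, the member with the largest gene-level difference, while Tgtp1, whose probe was alike on both arrays, held both. A match describes the letters and shows no binding.

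**Figure D3:**
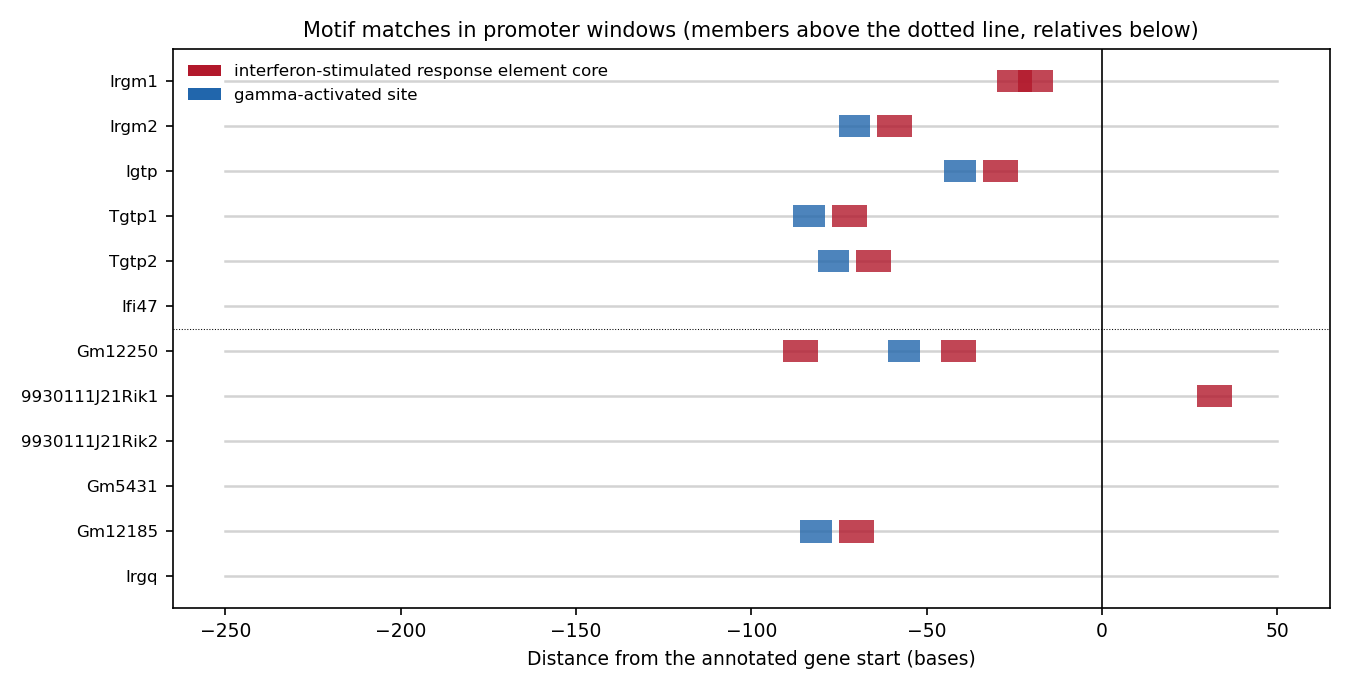
Positions of the 2 motifs in promoter windows of 6 members and 6 further IRG genes, in bases from the annotated start, red for the response element core and blue for the gamma-activated site. Blue and red lie side by side at the same spacing in Irgm2, Igtp, Tgtp1, Tgtp2 and Gm12185; the window of Ifi47 holds neither.

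Of 11 further IRG genes and relatives, 10 were on the array and 7 well above background on both arrays. Of these 7, 3 were at least 2-fold higher and 0 lower by that much, set against 4.57% and 1.78% of all genes. Their median difference was 0.82. Gm4951, a relative of Iigp1, had the largest difference, with a signal of 598 with miR-122 and 28.1 with PBS, 25.8-fold higher, or 8.92-fold with normexp. 9930111J21Rik2 read 55.2 with miR-122 and 14.7 with PBS, 4.54-fold higher, but 1.83-fold with normexp. Gm5431 read 110 with miR-122 and 61.2 with PBS, 2.18-fold higher, but under 2-fold without scaling, with median scaling and with normexp. The other probe of Gm5431, dimmer by its mean log2 signal over both arrays, read 153 with miR-122 and 13.6 with PBS, 13.7-fold higher. Its signal with PBS was close to 10.8, the lowest signal well above background on that array. In the main processing the probes of this gene thus disagreed, as those of Iigp1 did. With normexp they gave 1.75-fold and 3.07-fold. The brighter probe of 9930111J21Rik1 differed by 0.82. Its other probe read 66.4 with miR-122 and 25.1 with PBS, 3.21-fold higher, or 1.76-fold with normexp, and the mean over probes raised the count of relatives past 2-fold to 4. F830016B08Rik differed by 0.60. Gm12250, which encodes the effector Irgb10, read 54.0 with miR-122 and 54.3 with PBS, a difference of 0.27 that was -0.01 without scaling. Irgq, a relative that is not interferon-inducible in mice, differed by 0.39. Gm12185 was well above background on the miR-122 array only, at 13.4 there against 11.5 with PBS. It was 1.42-fold higher in the main processing, but 1.21-fold with normexp. Gm4841 and the testis gene Irgc1 were well above background on neither array.

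**Figure D4:**
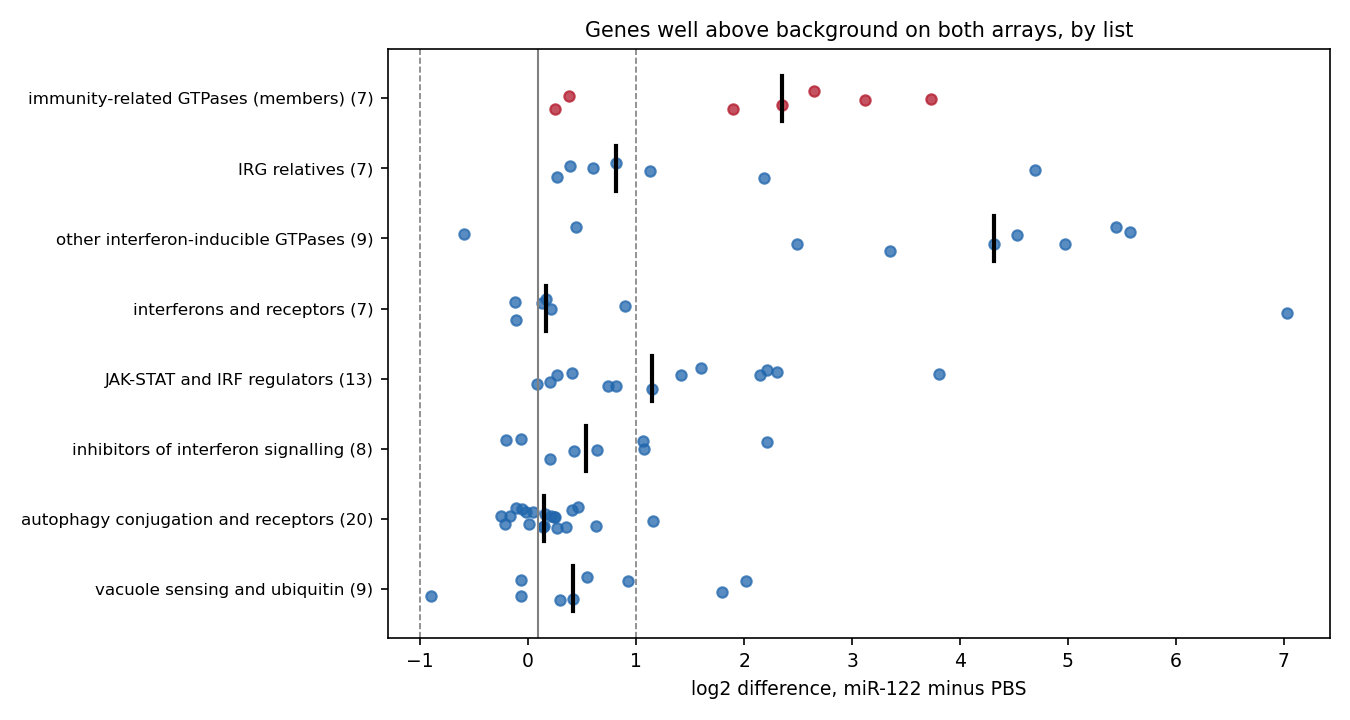
Log2 difference, miR-122 minus PBS, of the members and of 7 lists of genes, 1 point per gene well above background on both arrays, with list medians as black bars, the median of all genes (0.09) as a grey line and 2-fold as dashed lines. The members and the other interferon-inducible GTPases lie mostly above 2-fold, while autophagy genes lie near the median of all genes.

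Among other interferon-inducible GTPases, which work beside the IRG proteins on vacuoles or against viruses, 7 of the 9 measured genes passed 2-fold upward and 0 downward, with a median of 4.32. Over all genes the shares were 4.57% upward and 1.78% downward. By gene value Gbp2 had the largest difference of the list, with a signal of 3306 with miR-122 and 84.3 with PBS, 47.5-fold higher, or 27.4-fold with normexp. Gbp2b had 3657 with miR-122 and 101 with PBS, 43.7-fold higher, or 26.9-fold with normexp, and Gbp3 had 15593 with miR-122 and 601 with PBS, 31.4-fold higher. A dimmer Gbp2b probe was 55.7-fold higher, or 26.0-fold with normexp. By gene value these 3 genes stood above the other members measured on both arrays. Gbp5 had a signal of 789 with miR-122 and 41.4 with PBS, 23.1-fold higher, or 9.16-fold with normexp. Gbp7 had 2451 with miR-122 and 149 with PBS, 20.0-fold higher, and Gbp9 had 1008 with miR-122 and 120 with PBS, 10.2-fold higher, or 6.25-fold with normexp. The giant GTPase gene Gvin1 was 5.62-fold higher. Guanylate-binding protein genes are close relatives, so a probe can share transcripts of several.

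Of 7 ligand and receptor genes upstream of the IRG family measured on both arrays, 0 were at least 2-fold lower, against 1.78% of all genes. At least 2-fold higher was 1 gene, against 4.57% of all genes. It was Ifnb1, the interferon beta gene, with a signal of 3227 with miR-122 and 29.9 with PBS, 131-fold higher, or 44.2-fold with normexp. Of the interferon alpha genes, Ifna2 read 83.4 with miR-122 and 54.1 with PBS, a difference of 0.90. Its dimmer probe was well above background with miR-122 only. That probe was at least 2.34-fold higher by the bound of the main processing, but 1.38-fold with normexp. Ifna1 read 117 with miR-122 and 127 with PBS, a difference of 0.16 that turned sign without scaling and with median scaling. The receptor genes differed little, by 0.21 for Ifnar1, -0.12 for Ifnar2, -0.11 for Ifngr1 and 0.13 for Ifngr2, and the signs of Ifnar1 and Ifngr2 turned without scaling, that of Ifngr2 also with median scaling. Ifna4 was well above background on the miR-122 array only, at least 3.81-fold higher by the bound of the main processing, but 1.60-fold with normexp.

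In the list of JAK-STAT and IRF regulators, 7 of 13 genes were at least 2-fold higher, 0 were lower by that much and the median was 1.14. Among all genes 4.57% were higher and 1.78% lower by that much. Batf2, a transcription factor gene known as an interferon target in macrophages, read 901 with miR-122 and 77.9 with PBS, 14.0-fold higher, or 8.16-fold with normexp. Irf7, the regulator of interferon alpha genes, read 693 with miR-122 and 170 with PBS, 4.93-fold higher. The class I transactivator gene Nlrc5 read 6785 with miR-122 and 1768 with PBS, 4.65-fold higher. Irf1, a factor that drives GTPase genes after interferon gamma, read 5783 with miR-122 and 1582 with PBS, 4.43-fold higher. Stat2 was 3.03-fold and the kinase gene Tyk2 2.66-fold higher. Jak2, another kinase gene, was 2.21-fold higher, but under 2-fold without scaling, with median scaling and with normexp. In those settings 6 genes of the list passed 2-fold, and the list median was 0.87 without scaling.

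Of 8 inhibitors of interferon signalling, 3 were at least 2-fold higher and 0 lower by that much, set against 4.57% and 1.78% of all genes. Their median was 0.53. Usp18, which encodes a protease that blocks the type I receptor, read 18654 with miR-122 and 4873 with PBS, 4.64-fold higher. Cish was 2.11-fold and Socs1 2.09-fold higher, and both were under 2-fold without scaling, with median scaling and with normexp. Socs3 differed by 0.64 and Ptpn6 by -0.21. The brightest Pias1 probe differed by 0.43 and its dimmer probes by -0.16 and 0.28.

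The autophagy machinery, part of which is needed in mouse cells to place IRG proteins on vacuoles, differed little. Of 20 genes 1 was at least 2-fold higher, near the 4.57% of all genes, and 0 lower by that much, against 1.78%. The median was 0.15, against 0.09 over all genes. Atg16l1, a scaffold of the conjugation complex, read 880 with miR-122 and 478 with PBS, 2.23-fold higher, but under 2-fold without scaling and with median scaling. The receptor gene Sqstm1 differed by 0.63, Nbr1 by 0.46, Optn by 0.40, Tax1bp1 by 0.35 and Atg3 by 0.27, and Atg3 turned sign without scaling. Among 9 genes for sensing damaged vacuoles and tagging them with ubiquitin, 2 were at least 2-fold higher and 0 lower by that much, with a median of 0.42. The shares of all genes were again 4.57% higher and 1.78% lower. Lgals9, a galectin gene, read 608 with miR-122 and 182 with PBS, 4.05-fold higher. The ubiquitin ligase gene Trim21 read 1074 with miR-122 and 375 with PBS, 3.47-fold higher. Lgals8 differed by 0.93, Lgals3 by 0.55 and Rab7 by 0.42. The brighter probe of Snap23, a membrane fusion gene, differed by -0.90 and its other probe by 0.34. The brighter probe was past 2-fold lower without scaling, at -1.18, and with median scaling, which makes 1 gene of the list lower by that much.

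The 5 genes outside these lists whose difference lay nearest to the member median of 2.35 were Pdcd1, Parp11, Sprr2g, Peli1 and Asb11. Their differences lay between 2.34 and 2.35. The likeness is in the size of 1 difference between 2 arrays and says nothing of shared control.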

How the data were processed

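Per the file headers, spots were quantified by Agilent Feature Extraction 11.0.1.1, and the deposited scanner files hold intensities that are background-subtracted and detrended, with no normalization between arrays. The deposited series matrix holds log2 values, and how the authors normalized them is not stated in the labels or files used. Their differences nearly equalled those of quantile normalization here, as 1.7351 against 1.7348 for the brighter Irgm1 probe. The authors' values are therefore not a separate check beside quantile normalization. Its columns each have a median of 5.16, and each correlates at 0.997 with the log2 signal of its own array across probes. Control spots and outlier spots, 196 with miR-122 and 145 with PBS, were left out. Processed signals were converted to log2, spots of a probe averaged, and the 75th percentile subtracted. Accessions were matched without versions to a RefSeq table of GRCm38.p6, used for names, and 27234 of 39429 probes matched. For each gene the probe with the highest mean log2 signal was used, if well above background on 1 array or both. For a probe below background on the PBS array, the bound on its fold used as PBS level that array's lowest well-measured signal, or the probe's own signal if higher. Where the probe's own signal was the higher, as for Gm12185 and the dimmer Ifna2 probe, the value is the measured fold and no bound. The bound holds for the main processing only and leaves out the error of the spots. With 1 array per group, 2-fold was counted in place of a test. Counts past a fold were checked on simulated data with known changes, which cannot supply the missing spread between cultures and lend the counts no support. The members and lists were chosen with earlier results of these data known. Named were the members, every relative measured, up to 6 genes with the largest absolute differences per list, and the 5 nearest genes; others named were chosen after their values were seen. R 4.3.3 with limma 3.58.1 gave the normexp (offset 50, on median spot signals), quantile and loess (span 0.3) alternatives, and all other values came from Python 3.11.15 with pandas 2.3.3 and numpy 2.4.6.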

Additional observations from a re-analysis of the deposited data

How the results depend on the processing

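No paired analysis was possible because each group holds 1 array, and no replicate could be left out. The count of member probes past 2-fold was 7 under every other scaling, background correction and source of values tried, 7 at 1.5-fold and 5 at 4-fold. The count of member genes was 5 under the same settings, 4 at 4-fold and 6 with the mean over probes. As alternatives chosen after seeing the data, leaving out Tgtp1 and Tgtp2 gave 4 genes and taking the other Iigp1 probe gave 6. The member median of 2.35 was 2.08 without scaling and 2.65 with the other Iigp1 probe. Over all genes, 955 passed 2-fold in either direction, against 531 with normexp, 2714 at 1.5-fold, 139 at 4-fold and 1809 with no filter on dim probes. Of those past the threshold, 71.9% were higher with miR-122, against 40.5% without scaling (394 higher and 579 lower), 50.8% with median scaling (471 higher and 456 lower), 59.9% with quantile normalization or the authors' values (528 higher and 354 lower) and 87.8% at 4-fold. For the IRG relatives, the mean over probes gave a median of 1.25 and normexp left 1 gene past 2-fold. The median of the other interferon-inducible GTPases was 3.20 with normexp, and 3.99 with probes well above background on at least 1 array or with no filter. Under either of those filters 2 genes of the interferon and receptor list passed 2-fold. Of the inhibitors 1 passed without scaling, with median scaling and with normexp, and of the autophagy genes 0 passed without scaling and with median scaling. The number of arrays limits every comparison, and probes near background, such as the second Iigp1 probe, limit their own folds.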

Other observations

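Genes that lie beside the IRG genes on the chromosome, chosen for this after values were seen, did not pass 2-fold. Of all genes only 4.57% were at least 2-fold higher and 1.78% lower, so among so few neighbours a count of 0 is near that share. In the group on chromosome 11 that runs from Irgm1 to Ifi47 in the order of GRCm38.p6, 6 of 11 other protein-coding genes, counting 5 on each side, were well above background on both arrays. Their differences lay between -0.14 and 0.49, while Irgm1, Gm5431, 9930111J21Rik2, Tgtp2 and Ifi47 of the 8 IRG genes in the group passed 2-fold. In the second group on that chromosome, from Gm12250 to Irgm2, 7 of 10 other genes were measured and lay between -0.52 and 0.21. Around Gm4951 and Iigp1, 7 of 10 other genes were measured and lay between -0.25 and 0.83, the highest being Isoc1.

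Gbp6, a guanylate-binding protein gene, had probes that opposed each other. The brighter read 91.8 with miR-122 and 167 with PBS, a difference of -0.59. The other read 264 with miR-122 and was not well above background with PBS. It was at least 29.7-fold higher by the bound of the main processing, but 6.02-fold with normexp.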
